A study of Mus musculus with 8 samples.

Results

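Peritoneal macrophages that lack the creatine transporter gene Slc6a8 were compared with and without interferon gamma (IFN-gamma), using 2 of the 8 RNA sequencing samples of the study. A gene counted as measured when it reached 5 FPKM (fragments per kilobase of transcript, scaled to the library's total) in at least 1 of both knockout libraries, which kept 7912 of the 16657 genes listed for peritoneal macrophages. The knockout (KO) cells came from Slc6a8-/y mice on the C57BL/6 background, and the gene is on the X chromosome. The macrophages had been drawn into the peritoneum by injecting 1 ml of 4% thioglycollate 3 to 4 days before collection. The KO cells were either left untreated or given IFN-gamma at 10 ng/mL for 12 hours. Wild-type (WT) C57BL/6 macrophages, elicited and treated the same way, gave the values set beside them. The other 4 samples are bone marrow-derived macrophages under another cytokine and were not used here. Each group holds 1 library. Whether both KO libraries come from the same animal, whether animals were pooled, and how old they were is not given in the labels. Every difference below is therefore a size without a replicate check, and no p-value is given.

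IFN-gamma binds a receptor made of Ifngr1 and Ifngr2, and the kinases Jak1 and Jak2 at that receptor phosphorylate transcription factors of the STAT family. These enter the nucleus as dimers and bind gamma-activated sites in promoters of genes such as Irf1, whose product goes on to switch on a further set of genes. In macrophages the pathway is known for killing of intracellular microbes, antigen presentation and chemokine release. Macrophage identity rests on transcription factors such as Spi1 (PU.1), Cebpa, Cebpb, Maf and Irf8. The cells take up particles through Fc receptors for antibody, complement receptors, scavenger receptors, C-type lectins and receptors for apoptotic cells.

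The promoters of 5 genes that stood at least 4-fold higher in IFN-gamma-treated KO cells are shown because each carries, within the 250 bases before its start, letters that STAT dimers or the interferon regulatory factors are known to bind. The gamma-activated site, to which STAT dimers bind, was searched as TTCNNNGAA. The interferon-stimulated response element was searched by its core, GAAA and GAAA parted by any 2 letters. Both were searched on both strands. Capitals mark the matches, and the sequences are from RefSeq on GRCm38.p6, each written along its gene's strand. They belong to Gbp2 (chr3:142620413-142620662, plus strand), a guanylate-binding GTPase that acts on pathogen vacuoles, to Irf1 (chr11:53769764-53770013, plus strand) and to Irf8 (chr8:120736108-120736357, plus strand), a regulator of the monocyte lineage. The others are those of Fcgr1 (chr3:96293970-96294219, minus strand), the high-affinity receptor for IgG, and Fcgr4 (chr1:171018676-171018925, plus strand), another activating IgG receptor.
Gbp2: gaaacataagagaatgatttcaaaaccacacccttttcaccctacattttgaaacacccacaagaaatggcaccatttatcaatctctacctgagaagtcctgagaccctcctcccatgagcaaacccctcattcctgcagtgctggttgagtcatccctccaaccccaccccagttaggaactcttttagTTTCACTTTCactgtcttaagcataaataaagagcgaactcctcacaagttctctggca
Irf1: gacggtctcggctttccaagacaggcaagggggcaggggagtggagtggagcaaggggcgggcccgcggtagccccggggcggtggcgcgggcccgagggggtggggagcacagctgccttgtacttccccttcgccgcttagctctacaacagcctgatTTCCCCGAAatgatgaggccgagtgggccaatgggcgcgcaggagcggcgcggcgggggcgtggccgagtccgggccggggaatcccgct
Irf8: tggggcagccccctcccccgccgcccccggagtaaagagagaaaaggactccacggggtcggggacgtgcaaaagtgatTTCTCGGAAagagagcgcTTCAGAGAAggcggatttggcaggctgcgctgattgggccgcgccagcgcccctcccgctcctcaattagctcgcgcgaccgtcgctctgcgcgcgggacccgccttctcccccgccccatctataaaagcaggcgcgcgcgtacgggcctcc
Fcgr1: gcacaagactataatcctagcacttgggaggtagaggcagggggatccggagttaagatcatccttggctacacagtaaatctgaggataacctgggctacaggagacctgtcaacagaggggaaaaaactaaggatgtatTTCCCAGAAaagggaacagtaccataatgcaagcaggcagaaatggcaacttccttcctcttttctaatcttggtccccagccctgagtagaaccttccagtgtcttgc
Fcgr4: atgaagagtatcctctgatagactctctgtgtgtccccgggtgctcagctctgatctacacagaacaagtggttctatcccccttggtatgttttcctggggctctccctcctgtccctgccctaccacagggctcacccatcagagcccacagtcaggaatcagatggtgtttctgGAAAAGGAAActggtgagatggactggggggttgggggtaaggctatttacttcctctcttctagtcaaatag

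In Gbp2 and Fcgr4 the match is to the interferon-stimulated response element, and it begins 59 and 73 bases before the start. In Irf1 and Fcgr1 the match is to the gamma-activated site, 90 and 109 bases before the start. Irf8 has a pair of gamma-activated site matches, at 171 and 153 bases. Promoter windows from 250 bases before to 50 after the start were found for 6402 of the 7912 measured genes, some with several starts. The response element was found in 18.9% of the 296 promoters of genes at least 4-fold higher, in 3.03% of the 132 promoters of genes at least 4-fold lower, and in 3.26% of the 8194 promoters of all measured genes. The gamma-activated site was found in 14.2%, 4.55% and 6.63% of the same promoters. Over all 32851 promoters of the RefSeq table the shares were 3.44% for the response element and 8.3% for the gamma-activated site. A match describes the letters of the window and was not tested as a binding site.

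The targeted gene was checked before any other. Slc6a8, the transporter that brings creatine into the cell, was at 0.73 FPKM without and 0.18 FPKM with IFN-gamma in the KO cells, against 163.54 and 39.52 FPKM in the WT pair. The total expected count was 10940358 in the untreated and 10986660 in the treated KO library, and 10812678 and 11065427 in the WT pair. The median KO gene near 5 FPKM rested on 169.0 counts in the untreated and 165.3 counts in the treated library, so counting error is small there. Counting intervals are exact 95% binomial (Clopper-Pearson) intervals of the ratio of counts scaled to the library totals, cover counting error only and carry no pseudocount. The macrophage markers Cd68, Lyz2, Ctss, Mpeg1 and Laptm5 stood between 1205 and 7634 FPKM in both KO libraries. Other macrophage markers stood far below these, such as Adgre1 (34.14 and 31.84 FPKM) and Fcgr1 (1.94 and 25.22 FPKM). Markers of further cell types are given below. The B cell markers Cd79a, Cd79b and Ms4a1 stayed at or below 3.14 FPKM.

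Many genes of the KO macrophages stood at another level with IFN-gamma. On the log2 ratio of FPKM + 1, the treated library had 681 genes (8.61% of those measured) that were 2-fold higher or more, and 579 (7.32%) that were 2-fold lower or more. At a 4-fold limit, 316 (3.99%) were higher and 143 (1.81%) lower. More than 16-fold, 78 were higher and 4 lower. The genes at least 2-fold higher held 3.9% of all FPKM in untreated and 17.9% in treated KO cells, while those at least 2-fold lower went from 12.2% to 4.2%. The counting interval lay on the same side of 0 for 670 of the higher and 572 of the lower genes. Among the genes measured, 438 reached 5 FPKM only with IFN-gamma and 692 only without it. Just inside the limit were S100a8 (4.3 and 5.04 FPKM) and Hbegf (0.65 and 5.13 FPKM), and just outside it Tfec (4.95 and 4.21 FPKM) and Klf2 (3.34 and 4.98 FPKM). The median log2 ratio of all measured genes was -0.08, and scaling the libraries by the trimmed mean of M-values (TMM) would raise the median by 0.13.

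**Figure D1:**
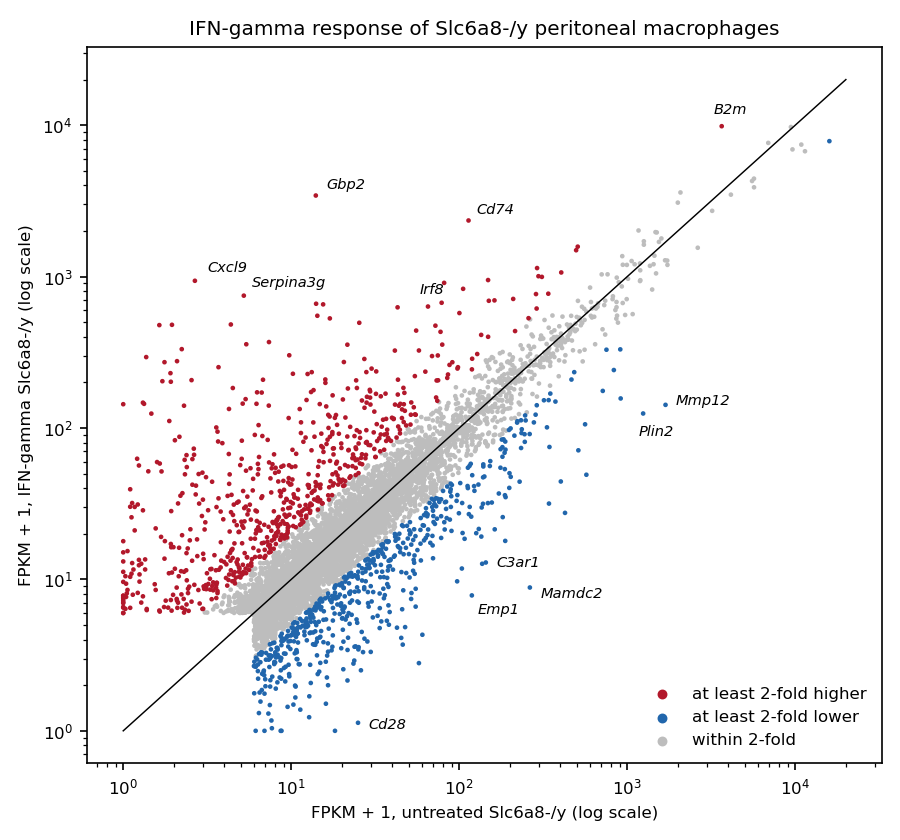
Each point is 1 of the 7912 measured genes, with FPKM + 1 in untreated Slc6a8-/y macrophages on the x axis and in IFN-gamma-treated ones on the y axis, both on log scales. Red points are the 681 higher genes, blue points the 579 lower ones and grey points the rest, and the line marks equal values: Cxcl9 (1.67 and 937 FPKM) and Gbp2 (13 and 3428 FPKM) lie far above it, Mmp12 (1688 and 141 FPKM) far below.

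The genes with the highest ratios were the chemokine Cxcl9, the inducible nitric oxide synthase Nos2 and GTPases that attack microbe-containing vacuoles. Nos2 went from 0.64 to 476.97 FPKM, a log2 ratio of 8.19 (counting interval 9.04 to 10.14). Cxcl9, which draws activated T cells through Cxcr3, went from 1.67 to 936.76 FPKM, a log2 ratio of 8.46. Iigp1 and Gbp2, both GTPases, each had a log2 ratio of 7.94. In WT cells the log2 ratios were 5.96 for Nos2, 7.11 for Cxcl9, 8.72 for Iigp1 and 8.82 for Gbp2. Tgtp1, a GTPase with the near-identical copy Tgtp2, had 0 counts in the untreated library and 142.55 FPKM in the treated one. With reads as assigned, and against a floor of 3 counts in the untreated library, it was 1465-fold higher. Tgtp2 had 38.07 counts untreated, so 1465 is not a lower bound if some of these belong to Tgtp1. The remaining genes of the top 12 were Tgtp2, the protease inhibitors Serpina3f and Serpina3g, Calhm6, the itaconate-producing enzyme Acod1, the chemokine Cxcl10 and the antiviral Ifit2, with log2 ratios between 6.9 and 7.74. Counts of close copies such as Tgtp1 and Tgtp2 or Serpina3f and Serpina3g could be split between them and are uncertain.

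At the other end stood Mamdc2, Cd28, Dio2, Sgk1, Emp1, Rhov, Prss46, Mmp12, Lhfpl2, C3ar1, Bex1 and Ckb. Cd28, best known as the T cell costimulatory receptor, went from 23.97 to 0.13 FPKM in the KO cells, with 6 counts left of 1141, and from 19.45 to 0.56 FPKM in the WT cells. In the same KO libraries the T cell markers Cd3e, Cd3d and Lck stood at 0.06, 0.67 and 0.79 FPKM untreated. With IFN-gamma they stood at 0, 3.2 and 6.24 FPKM. The part of T cells in the Cd28 values was not tested. Dio2, which activates thyroid hormone, went from 56.53 to 1.8 FPKM, a log2 ratio of -4.36. Sgk1, a kinase of ion transport and survival signalling, went from 425.03 to 26.5 FPKM. Mamdc2 had the lowest ratio, -4.90 on the log2 scale (262.15 to 7.84 FPKM, counting interval -5.24 to -4.89). Mmp12, the macrophage elastase, went from 1687.94 to 141.16 FPKM. Ckb, the cytosolic creatine kinase that recharges ATP from phosphocreatine, went from 135.88 to 11.68 FPKM, in cells without the creatine importer, and from 103.56 to 10.54 FPKM in the WT cells.

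Of the genes of the IFN-gamma pathway, the receptor chains stayed within 2-fold and most of the others measured were higher. Of 23 listed genes, 21 were measured, 14 were at least 2-fold higher and 0 lower, with a median log2 ratio of 1.33. Over all measured genes 8.61% were higher and 7.32% lower. Of the 21 genes, 4 reached 5 FPKM only with IFN-gamma. Ifngr1 stood at 29.82 and 24.48 FPKM and Ifngr2 at 140.95 and 112.2 FPKM. Irf1 went from 13.06 to 660.46 FPKM and the kinase Jak2 from 8.75 to 25.74 FPKM. The feedback inhibitors Socs1 and Socs3, which block Jak kinases, stood at 2.58 and 1.96 FPKM untreated and at 99.79 and 49.7 FPKM with IFN-gamma.

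GTPase, antigen presentation and antiviral lists were higher in nearly all measured members, and chemokine and cytokine lists in most. Over all measured genes 8.61% were higher and 7.32% lower. All 18 measured guanylate-binding proteins and immunity-related GTPases, of 20 listed, were at least 2-fold higher, with a median log2 ratio of 5.5. It was 5.87 with the 2 genes at 0 untreated set to a floor of 3 counts. Of these 2, Tgtp1 rests on counts that could be split with Tgtp2. Of 12 class II presentation genes 10 were measured and 9 higher, led by Ciita, the master regulator of these genes, at 0.21 and 61.64 FPKM. The exception was the protease Ctss, already at 6904 FPKM and then at 7634 FPKM. Of 20 class I presentation and immunoproteasome genes 19 were higher, and the exception was H2-D1 (1998 and 3077 FPKM). The 26 measured type I interferon response genes, of 28 listed, were all higher, and 18 of them reached 5 FPKM only with IFN-gamma. Their median log2 ratio was 3.66 in KO and 1.61 in WT cells, where 21 were at least 2-fold higher. The measured genes were chosen by KO levels, and the difference between genotypes was not tested. Among chemokines, 10 of 15 measured were higher and 0 lower. Ccl5, which draws T cells and monocytes, went from 1.16 to 86.48 FPKM, while Ccl3, Ccl4, Ccl6, Ccl9 and Pf4 were within 2-fold. In WT cells Ccl5 went from 1.01 to 10.97 FPKM. Of 30 cytokine, inflammatory enzyme and checkpoint genes 19 were measured and 14 higher, among them Tnf (2.67 and 80.42 FPKM), Cd40 (0.33 and 143.38 FPKM) and Cd274, which encodes PD-L1 (20.58 and 353.9 FPKM). Il6 (0.16 and 0.17 FPKM), Il1b (0 and 0.07 FPKM) and Il12b (0.22 and 1.57 FPKM) stayed below the limit. These lists hold genes that reach 5 FPKM only after induction, so their counts and medians describe the measured members only.

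**Figure D2:**
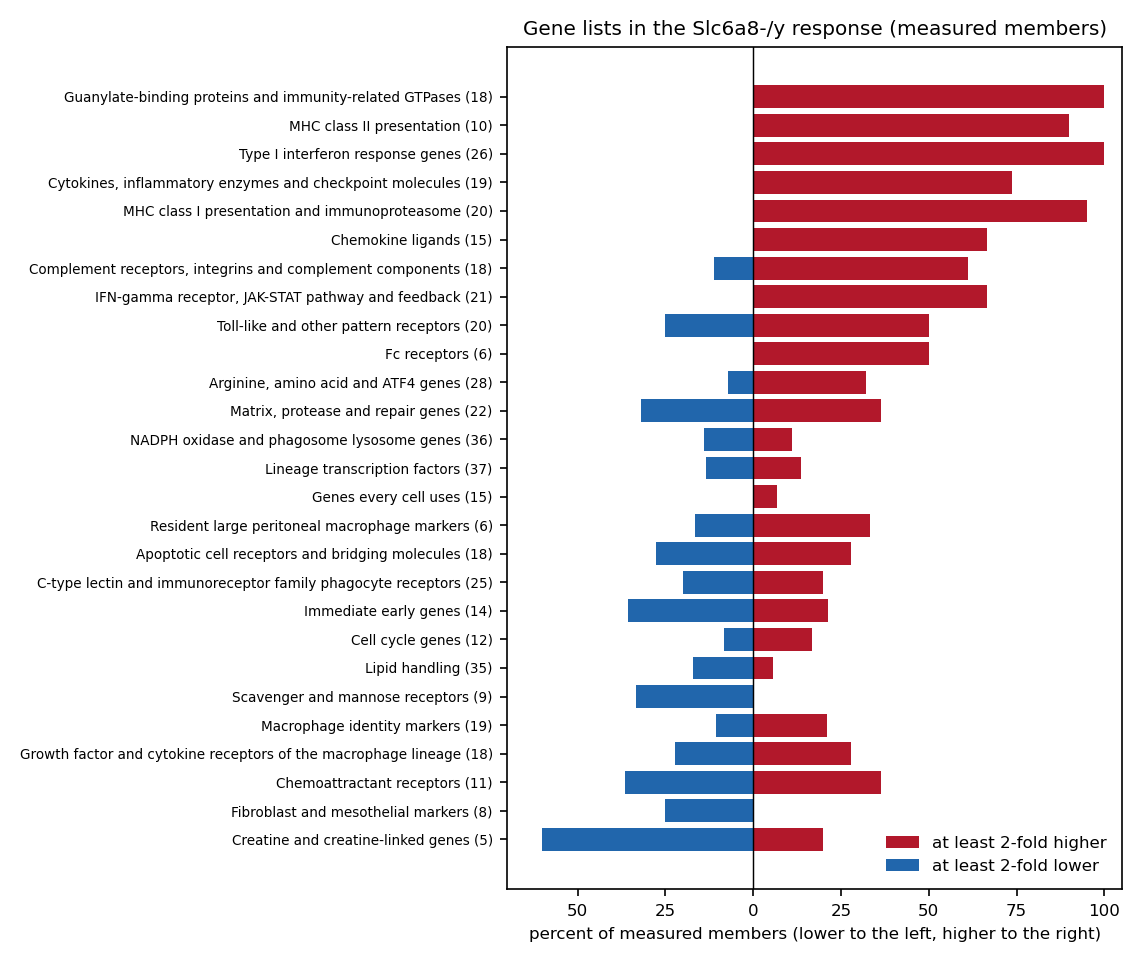
For each gene list, the red bar gives the percent of its measured members that were 2-fold higher or more in IFN-gamma-treated Slc6a8-/y macrophages, and the blue bar the percent that were 2-fold lower or more, with the number measured after the name. Over all 7912 measured genes these were 8.61% and 7.32%. The interferon and antigen presentation lists have bars to the right only, and lineage transcription factors and most phagocyte receptor lists have bars on both sides.

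Measured transcription factors of the myeloid lineage were mostly within 2-fold, with a few higher and a few lower. Of 52 listed, 37 were measured: 5 were higher by 2-fold or more (8.61% of all genes were), 5 lower (7.32% of all genes were) and 27 within 2-fold, with a median log2 ratio of 0.01. Irf8, which drives monocyte and dendritic cell fates, went from 64.13 to 633.05 FPKM, a log2 ratio of 3.28 (counting interval 3.24 to 3.37). Batf2, a partner of Irf8 and Irf1 on DNA, went from 1.55 to 205.99 FPKM, a log2 ratio of 6.34. The vitamin D receptor Vdr went from 0.25 to 8.67 FPKM and passed the limit only with IFN-gamma. Batf, a related leucine zipper factor, went from 6.22 to 16.72 FPKM and Ikzf1 (Ikaros) from 7.75 to 18.74 FPKM. Batf3, the factor of cross-presenting dendritic cells, stayed just under the limit at 1.6 and 4.77 FPKM.

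Among the lower factors were Pparg, Bhlhe41, Lmo2 and Lyl1. Pparg, the nuclear receptor of lipid uptake and of alveolar macrophages, went from 68.8 to 12.79 FPKM, a log2 ratio of -2.34 (counting interval -2.59 to -2.22). Bhlhe41, a repressor that supports macrophage self-renewal together with Bhlhe40, went from 77.03 to 17.79 FPKM, while Bhlhe40 stood at 141.92 and 80.76 FPKM. Maf, which holds macrophage identity, stood at 17.96 and 12.67 FPKM in the KO cells. Lmo2 and Lyl1, which work in 1 complex in blood stem cells, stood at 77 and 30.49 FPKM untreated and at 25.14 and 11.41 FPKM with IFN-gamma.

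The factors at the base of the lineage kept their level within 2-fold. Spi1 stood at 257.99 and 347.53 FPKM, Cebpa at 105.58 and 97.44 FPKM and Cebpb at 147.93 and 127.39 FPKM. Runx1, which opens the myeloid programme, stood at 15.36 and 11.25 FPKM, and Zeb2, which maintains macrophage identity, at 53.25 and 31.48 FPKM. Rxra, the partner of Pparg on DNA, was just within 2-fold at 26.83 and 13.19 FPKM. Klf4, linked to monocyte differentiation and alternative activation, stood at 3.78 and 7.17 FPKM in the KO cells and 5 and 2.74 FPKM in the WT cells. Gata6, the factor of resident peritoneal macrophages, stood at 5.87 and 3.37 FPKM. In the same libraries the mesothelial genes Upk3b (6.34 and 2.15 FPKM) and Lrrn4 (7.27 and 1.09 FPKM) were lower, and Wt1 stood at 6.12 and 2.75 FPKM, within 2-fold. The part of mesothelial cells in the Gata6 values was not tested. In such bulk samples fewer cells of a type and less RNA per cell cannot be told apart. Irf4, a factor of alternative activation, stood at 1.24 and 0.4 FPKM, below the limit.

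**Figure D3:**
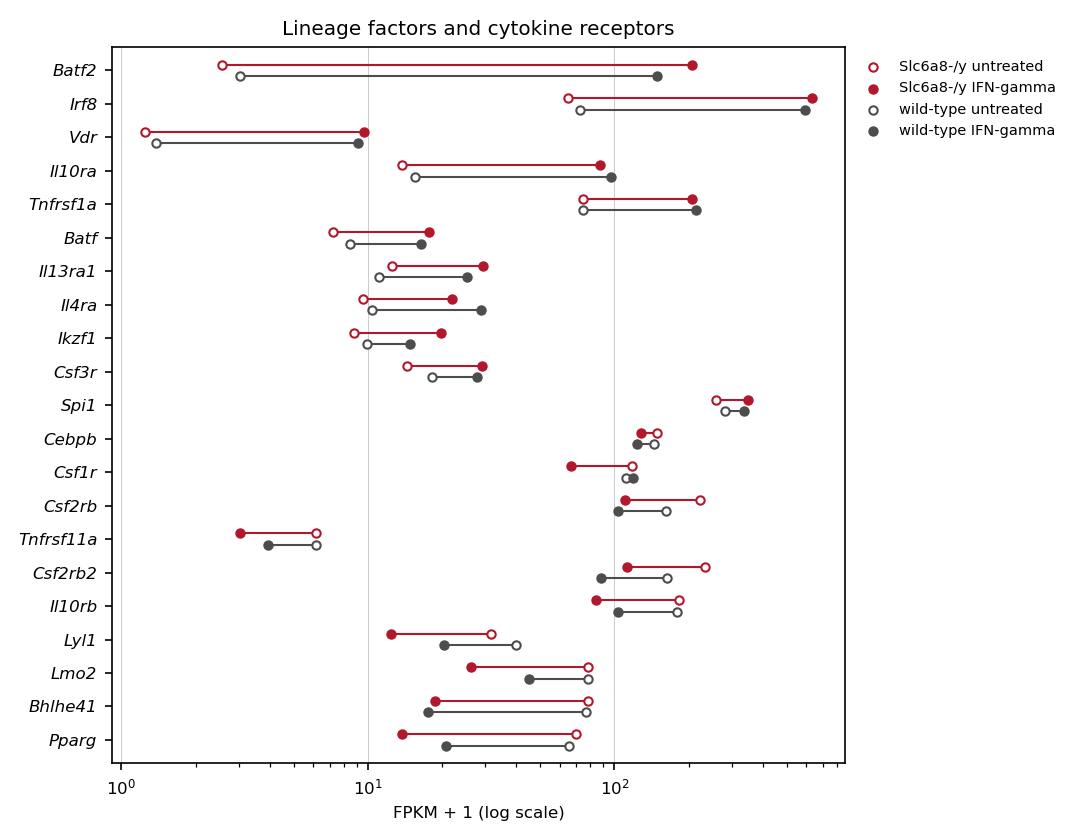
FPKM + 1 of lineage transcription factors and cytokine receptors on a log scale, with Slc6a8-/y macrophages in red and wild-type ones in grey. Open points are untreated and filled points IFN-gamma-treated, 1 library a point. Irf8 and Batf2 are far higher with IFN-gamma in both genotypes, and Pparg and Bhlhe41 are lower in both.

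The receptors that carry growth and differentiation signals to these cells had members in both directions. Of 21 listed, 18 were measured, with 5 higher, 4 lower and a median log2 ratio of -0.39. Of all measured genes 8.61% were higher and 7.32% lower. Il10ra, the chain that binds the anti-inflammatory cytokine IL-10, went from 12.75 to 86.59 FPKM, a log2 ratio of 2.67. Its partner Il10rb went the other way, from 182.49 to 83.14 FPKM. The TNF receptor Tnfrsf1a went from 73.84 to 205.51 FPKM, while Tnfrsf1b stood at 93.41 and 63.44 FPKM. Il4ra and Il13ra1, the chains of the receptor for IL-4 and IL-13, went from 8.54 to 20.9 and from 11.48 to 28.35 FPKM. Csf3r, the receptor for G-CSF, was at the limit with 13.41 and 27.92 FPKM.

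Csf1r, the receptor for M-CSF on which macrophages depend, stood at 116.79 and 65.4 FPKM in the KO cells, a log2 ratio of -0.83 (counting interval -0.90 to -0.77). In the WT cells it stood at 110.41 and 118.3 FPKM. Its ligand gene Csf1 went from 8.52 to 20 FPKM in the KO cells. The GM-CSF receptor chain Csf2ra stood at 146.88 and 184.99 FPKM. The shared chain Csf2rb went from 220.82 to 109.85 FPKM and its close copy Csf2rb2, which binds IL-3 only, from 232.17 to 111.42 FPKM, and reads could be split between both. Tnfrsf11a (RANK), the receptor of osteoclast formation, went from 5.16 to 2.04 FPKM. Csf2rb, Csf2rb2, Il10rb and Tnfrsf11a were within 2-fold under TMM scaling, at log2 ratios between -0.99 and -0.86.

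Genes of the phagocyte receptor lists stood both higher and lower with IFN-gamma. These lists also hold complement components, ligands and intracellular sensors, so their counts are not of receptors alone. The lists of Fc receptors, complement, scavenger receptors, C-type lectins, apoptotic cell receptors and pattern receptors together hold 139 genes. Of these 96 were measured, 34 were higher by 2-fold or more, 20 lower by as much and 42 within 2-fold. The median log2 ratio was -0.02, and 0.11 under TMM scaling. Among all measured genes 8.61% were higher and 7.32% lower. Of the 96 measured members, 14 reached 5 FPKM only with IFN-gamma and 7 only without it.

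The Fc receptors for IgG were higher where they activate. Fcgr1 went from 1.94 to 25.22 FPKM, a log2 ratio of 3.16 (counting interval 3.31 to 4.13), and Fcgr4 from 31.05 to 235.36 FPKM, a log2 ratio of 2.88. Their promoters are those shown above. Fcgr3, the activating receptor of low affinity, went from 287.69 to 613.96 FPKM. Fcgr2b, the inhibitory receptor, stood at 104.22 and 105.81 FPKM, and the shared signalling chain Fcer1g at 1450 and 1372 FPKM. Fcgrt, the receptor that recycles IgG, stood at 9.14 and 7.21 FPKM in KO cells and at 11.22 and 23.6 FPKM in WT cells.

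Most measured complement components were higher, and the receptors for the complement fragments C3a and C5a were lower. Of 18 measured genes of the complement list 11 were at least 2-fold higher and 2 lower, with a median log2 ratio of 1.74. The shares over all measured genes were 8.61% and 7.32%. C1qa, C1qb and C1qc, the chains of the C1q molecule that opens the classical pathway, stood at 29.07, 104.44 and 77.53 FPKM untreated and at 245.69, 828.87 and 670.37 FPKM with IFN-gamma. Cfb, of the alternative pathway, went from 1.32 to 60.59 FPKM, and C3, the central component, from 45.52 to 183.06 FPKM. Properdin (Cfp) was within 2-fold at 13.16 and 16.68 FPKM. C3ar1 went from 142.87 to 11.93 FPKM, a log2 ratio of -3.48, and C5ar1 from 28.73 to 2.32 FPKM, a log2 ratio of -3.16. The integrin subunits of complement receptors were within 2-fold: Itgam stood at 66.48 and 38.44 FPKM, Itgax at 304.57 and 251.37 FPKM and their partner Itgb2 at 938.31 and 668.02 FPKM. Itgal, the other partner of Itgb2 and the adhesion integrin LFA-1, went from 13.78 to 142.81 FPKM.

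Of 25 scavenger receptors listed, 9 were measured, with 0 at least 2-fold higher, 3 lower and a median log2 ratio of -0.36. Over all measured genes 8.61% were higher and 7.32% lower, so 0 higher among 9 lies near that share. Cd36, which takes up oxidised lipoproteins and long-chain fatty acids, went from 713.74 to 174.74 FPKM, a log2 ratio of -2.02 (counting interval -2.07 to -1.99). Lrp1, a large endocytic receptor that also clears apoptotic cells, went from 261.49 to 90.21 FPKM, and the mannose receptor Mrc1 from 33.18 to 11.48 FPKM. Msr1, the class A scavenger receptor, stood at 35.08 and 36.25 FPKM. Marco and Cd163 stayed at or below 2.3 FPKM. Cd68, the most abundant member, stood at 2626 and 1549 FPKM.

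Among C-type lectins and related immune receptors, members were found in both directions. Of 25 measured genes 5 were at least 2-fold higher and 5 lower, with a median log2 ratio of -0.18. The shares over all measured genes were 8.61% and 7.32%. Clec4e (Mincle), which senses mycobacterial glycolipid and dying cells, went from 5.43 to 63.33 FPKM, a log2 ratio of 3.32 (counting interval 3.30 to 3.79). Clec4d (MCL), known to pair with it, went from 186.76 to 16.96 FPKM, a log2 ratio of -3.39. Clec7a (Dectin-1), the receptor for fungal beta-glucan, stood at 280.29 and 281.32 FPKM. The activating receptors Cd300lb and Cd300ld went from 201.46 to 46.57 and from 116.85 to 24.97 FPKM. Siglec1, the sialoadhesin of tissue macrophages, went from 13.09 to 3.99 FPKM, and Trem2, a receptor for lipids and apoptotic cells, stood at 642.73 and 356.28 FPKM.

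Clec9a, the receptor by which dendritic cells sense dead cells, had 0 counts untreated and 498 counts (14.09 FPKM) with IFN-gamma, at least 165-fold higher against a floor of 3 counts in the untreated library. In WT cells it went from 0.13 to 30.71 FPKM. Batf3, another marker on the dendritic cell list, went with it from 1.6 to 4.77 FPKM in KO and from 2.02 to 7.23 FPKM in WT cells. The markers that stayed below 1 FPKM in both KO libraries included Xcr1 at 0.35 and 0.73 FPKM, Zbtb46 at 0.38 and 0.49 FPKM, Ccr7 at 0.1 and 0.14 FPKM, and Siglech and Itgae at 0 in both. The part of dendritic cells in the Clec9a values was not tested. Of the 12 dendritic cell markers 2 were measured, Clec9a and Sirpa, and Sirpa is also a macrophage marker.

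Receptors for apoptotic cells differed by kind. Of 18 measured genes 5 were at least 2-fold higher and 5 lower, with a median log2 ratio of -0.11, or 0.01 under TMM scaling. The shares over all measured genes were 8.61% and 7.32%. The kinase Axl went from 11.51 to 226.25 FPKM, a log2 ratio of 4.18 (counting interval 4.18 to 4.41), and its relative Mertk from 24.68 to 84.98 FPKM. Of their bridging ligands, which tie the kinases to phosphatidylserine on dying cells, Pros1 went from 16.57 to 92.93 FPKM and Gas6 from 20.78 to 3.12 FPKM. Timd4 (Tim-4), a phosphatidylserine receptor known from resident peritoneal macrophages, had 1 count untreated and 200 counts (8.37 FPKM) with IFN-gamma, a counting interval of 5.14 to 12.95 on the log2 scale. Xkr8, a scramblase that exposes phosphatidylserine, went from 2.28 to 9.1 FPKM. The integrin subunits Itgb3 and Itgb5, which bind apoptotic cells with Itgav, went from 8.51 to 0.44 and from 66.25 to 16.44 FPKM, while Itgav stood at 23.95 and 18.91 FPKM. Their bridging protein Mfge8 stood at 1405 and 820 FPKM. Anxa1, a phospholipid-binding protein that dampens inflammation, went from 912.4 to 155.67 FPKM. P2ry2, the receptor for the find-me signals ATP and UTP, went from 15.56 to 7.07 FPKM and was within 2-fold under TMM scaling, at -0.91.

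Pattern receptors were likewise divided, 10 higher and 5 lower of 20 measured, with a median log2 ratio of 0.63. The shares over all measured genes were 8.61% and 7.32%. Tlr2, the sensor of bacterial lipoproteins, went from 7.73 to 54.43 FPKM, its partner Tlr1 from 4.11 to 21.65 FPKM, and Tlr9, the sensor of unmethylated DNA, from 1.83 to 30.68 FPKM. Nlrp3, of the inflammasome, went from 0.77 to 16.9 FPKM, Nod1 from 5.72 to 34.38 FPKM and Sting1, the adaptor of cytosolic DNA sensing, from 19.29 to 153.3 FPKM. Components of the lipopolysaccharide receptor were lower or within 2-fold: Cd14 went from 134.31 to 18.18 FPKM, Ly96 (MD-2) from 26.83 to 10.75 FPKM, and Tlr4 stood at 16.38 and 10.14 FPKM. Cd180 and its partner Ly86, a related pair, stood at 89.95 and 42.69 FPKM untreated and at 270.76 and 139.26 FPKM with IFN-gamma. The endosomal RNA sensors Tlr13 and Tlr8 went from 96.14 to 8.71 and from 15.06 to 1.86 FPKM. Tlr7, their relative, stood at 53.17 and 38.05 FPKM. Naip5, a sensor of flagellin, stood at 7.78 and 3.38 FPKM and was within 2-fold under TMM scaling, at -0.89.

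**Figure D4:**
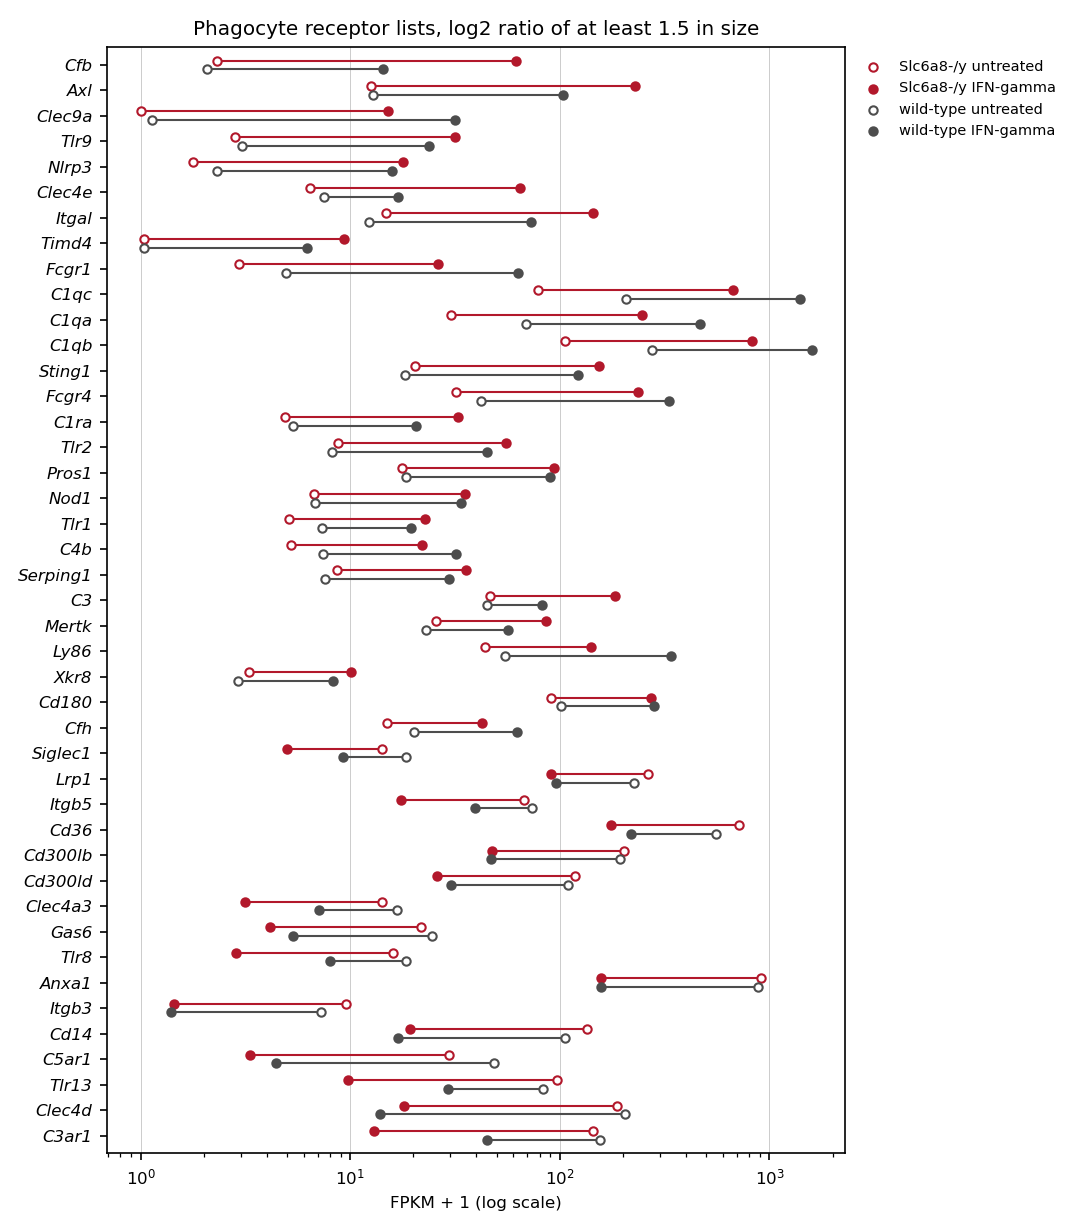
FPKM + 1 on a log scale of the phagocyte receptor list members with a KO log2 ratio of at least 1.5 in size, ordered by that ratio, with Slc6a8-/y macrophages in red and wild-type ones in grey. Open points are untreated and filled points IFN-gamma-treated, 1 library a point. In KO cells the FPKM runs to higher values for Fcgr1 (1.94 to 25.22), Axl (11.51 to 226.25) and Clec4e (5.43 to 63.33) and to lower values for Clec4d (186.76 to 16.96), C3ar1 (142.87 to 11.93) and Cd36 (713.74 to 174.74).

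Receptors for chemoattractants also differed in both directions. Of 11 measured genes 4 were at least 2-fold higher and 4 lower, with a median log2 ratio of -0.55. Of all measured genes 8.61% were higher and 7.32% lower. Gpr132, a receptor for lactate and oxidised lipids, went from 4.72 to 53.22 FPKM, P2ry14, which binds UDP-glucose, from 6.52 to 45.47 FPKM, and Cmklr1, the chemerin receptor, from 9.16 to 44.68 FPKM. Cxcr4, the receptor for Cxcl12, went from 170.99 to 35.92 FPKM and Ccr1, a receptor for Ccl3 and Ccl5, from 19.28 to 3.65 FPKM. In WT cells Ccr1 stood at 15.19 and 13.35 FPKM. The remaining lower pair, C3ar1 and C5ar1, is described above. Ccr2 (0.1 and 1.56 FPKM) and Cx3cr1 (0.25 and 0.12 FPKM), receptors of monocytes, stayed below the limit.

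General identity markers were mostly within 2-fold of their untreated level, though not more often than all measured genes. Of 20 macrophage markers 19 were measured, 4 higher (Fcgr1, Cybb, Mertk and Ms4a7), 2 lower, Cd14 among them, and 13 within 2-fold. Of all measured genes 8.61% were higher and 7.32% lower. The median log2 ratio of the macrophage markers was -0.37. Adgre1 (F4/80) stood at 34.14 and 31.84 FPKM. Markers of other cell types were also present. The summed level of the B cell markers was 7.66 and 5.96 FPKM, that of T and NK cell markers 2.47 and 10.35 FPKM, of neutrophil markers 24.48 and 39.08 FPKM and of eosinophil, basophil and mast cell markers 10.62 and 13.35 FPKM. In the T and NK list the higher sum came mostly from Lck (0.79 and 6.24 FPKM) and Cd3d (0.67 and 3.2 FPKM), with Cd3e at 0.06 FPKM and 0. The neutrophil sum was mostly Csf3r, with Ly6g at 0 and 0.1 FPKM. Erythroid and platelet markers summed to 90.12 and 114.94 FPKM, mostly globin genes such as Hba-a1 (32.48 and 46.2 FPKM). Fibroblast and mesothelial markers summed to 141.07 and 95.99 FPKM, with 2 of 8 measured members lower, Upk3b and Lrrn4, and a median log2 ratio of -0.78. Among them Dcn stood at 34.03 and 31.82 FPKM and Col1a2 at 37.06 and 23.79 FPKM, near the level of Adgre1. Their part in the lower genes was not tested.

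Genes for killing, degradation and metabolism differed in single members more than as lists. Of all measured genes 8.61% were at least 2-fold higher and 7.32% lower, to be set beside each list here. Of 36 phagosome and lysosome genes 4 were at least 2-fold higher and 5 lower. Cybb, the catalytic subunit of the NADPH oxidase, went from 208.42 to 710.68 FPKM and the protease Ctsc from 20.73 to 181.3 FPKM. The proton pump subunits Atp6v0d2 and Atp6v1a stood at 907.48 and 347.27 FPKM untreated and at 329.48 and 167.73 FPKM with IFN-gamma. Also lower were the cysteine proteases Ctsk (372.57 and 148.44 FPKM) and Ctsl (464.36 and 207.9 FPKM) and the GTPase Rac2 (88.12 and 29.1 FPKM). Of 35 lipid handling genes 2 were higher and 6 lower. The lipid droplet coat Plin2 went from 1242 to 123.66 FPKM and Fabp4, a fatty acid carrier, from 401.18 to 43.33 FPKM, beside Cd36 and Pparg above. Gatm, of creatine synthesis, went from 10.19 to 26.2 FPKM and Slc6a12, a betaine transporter of the Slc6a8 family, from 31.64 to 4.75 FPKM.

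Amino acid genes were higher in 9 and lower in 2 of 28 measured cases. Of all measured genes 8.61% were higher and 7.32% lower, which also stands beside the lists that follow. Ass1, which rebuilds arginine from citrulline, went from 2.2 to 27.63 FPKM, the arginine importer Slc7a2 from 2.15 to 9.98 FPKM and asparagine synthetase Asns from 3.76 to 31.11 FPKM. Cell cycle genes were measured in 12 of 32 cases. The inhibitor Cdkn1a (p21) went from 20.01 to 116.23 FPKM, and Cdkn1c (p57) from 161.58 to 20.41 FPKM, while Mki67 stood at 2.28 and 2.14 FPKM. Of 22 measured matrix and repair genes 8 were higher and 7 lower. The urokinase Plau went from 14.97 to 197.58 FPKM, its inhibitor Serpinb2 from 2.01 to 12.61 FPKM, and Igf1, a growth factor, from 22.8 to 2.59 FPKM. Of 14 measured immediate early genes 3 were higher and 5 lower. The phosphatase Dusp1, which switches off MAP kinases, went from 24.18 to 2.57 FPKM.

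The same genes were also read in the WT pair, which shares no library with the KO pair. There 546 (6.9%) of the 7912 genes were higher by 2-fold or more and 392 (4.95%) lower by as much. Both genotypes had 502 higher genes in common, which is 73.7% of the KO and 91.9% of the WT ones, and 349 lower genes, 60.3% and 89.0%. Within 1.5-fold in WT were 52 of the genes higher in KO and 45 of those lower. The gene set was chosen by the KO levels, which favours KO in these counts. Whether the responses differ could not be tested with 1 library a group.

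Some of the measured lineage, receptor and macrophage identity genes had KO and WT log2 ratios at least 1 apart, and those named here were picked after their values were seen. C3ar1 stood at 153.86 and 43.79 FPKM in WT, a log2 ratio of -1.79 against -3.48 in KO. Tlr13 had -1.50 in WT and -3.32 in KO, Tlr8 -1.21 and -2.49, Itgb5 -0.90 and -1.95, and Ccr1 -0.17 and -2.12. On the higher side, Clec4e had 1.16 in WT and 3.32 in KO, Cfb 2.79 and 4.73, C3 0.86 and 1.98, and Axl 3.02 and 4.18. Klf4, Ms4a7, Fcgrt and Pld4 were also among them. Pld4, an endolysosomal exonuclease, stood at 18.11 and 18.58 FPKM in KO and at 27.25 and 70.52 FPKM in WT. Others were close in both genotypes: Irf8 had 3.03 in WT and 3.28 in KO, Fcgr4 2.98 and 2.88, Bhlhe41 -2.12 and -2.05, and Cd14 -2.65 and -2.82.

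**Figure D5:**
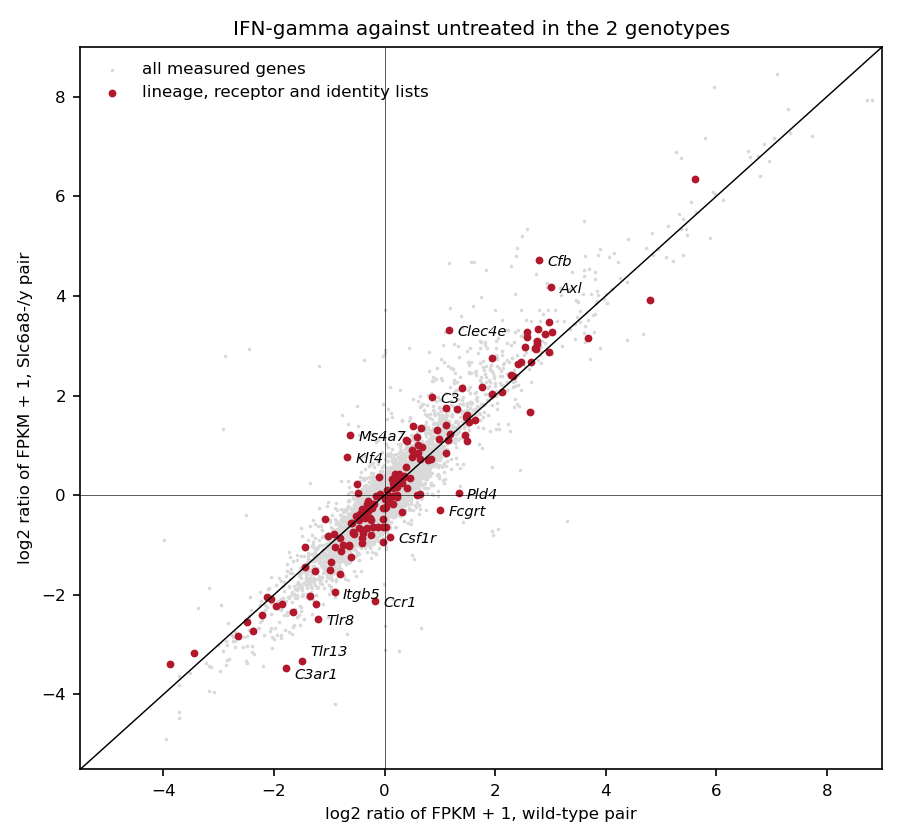
Log2 ratio of FPKM + 1 with IFN-gamma over untreated in wild-type macrophages on the x axis and in Slc6a8-/y macrophages on the y axis, with all measured genes in pale grey, the lineage, receptor and identity lists in red, and a line at equal ratios. Each ratio rests on 1 library a group: Clec4e (1.16 in WT, 3.32 in KO) lies above the line and Tlr13 (-1.50 and -3.32) and C3ar1 (-1.79 and -3.48) below it, and the distance from it was not tested.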

How the data were processed

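RNA of 4 peritoneal macrophage samples, 1 library a group, was analysed, and the 4 bone marrow-derived ones were not used here. The deposited tables list expected counts and FPKM for each gene, and the submitters' processing notes name Bowtie2 2.2.5, RSEM and the build mm10 (GRCm38). How the authors combined these tools, and the RSEM version, are not given in the sources used here. A gene missing from a table was set to 0. Entrez identifiers were named through RefSeq GRCm38.p6 (16615 of 16657).

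The response was computed as log2 of the ratio of FPKM + 1, over genes with at least 5 FPKM in either KO library, and 2-fold was the limit for calling a gene higher or lower. Counting intervals used expected counts rounded to whole numbers. The total was 10812678 to 11065427 counts a library. The counting intervals and a log2 ratio of counts were tested on simulated counts with known folds and counting error only. The ratio of FPKM + 1 and the spread between libraries were not part of that test. Python 3.11.15, numpy 2.4.6, pandas 2.3.3, scipy 1.17.1, matplotlib 3.10.9 and, for TMM factors only, edgeR 4.0.16 in R 4.3.3 were used.

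The comparison, the members and the 33 gene lists were chosen with earlier results of these data known. Of 736 list names, 1 had no match. Genes named were, among protein-coding genes with at least 100 counts, the 12 highest and the 12 lowest ratios. Added were lineage and phagocyte members past 2-fold, the 3 most abundant of each of those lists, up to 3 at either end of other lists, Slc6a8, Adgre1 and Cx3cr1. Genes named beyond that rule were chosen after their values were seen. Alternatives were other pseudocounts (0.1 and 5), FPKM limits (1 and 20), fold limits (1.5 and 4), count-based ratios and other scalings. A few listed genes count in the totals and are not reported here by name.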

Additional observations from a re-analysis of the deposited data

Results flagged for a closer look

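For 7 of the genes examined one by one and reported here, the KO and WT counting intervals lay on opposite sides of 0. Genes with opposite signs but an interval that reached 0, such as Adgre1 (-0.1 in KO and 0.08 in WT), were not counted. The difference was not tested, because each group holds 1 library. On the log2 scale, Csf1r had -0.83 in KO and 0.1 in WT, Fcgrt had -0.3 and 1.01, Klf4 had 0.77 and -0.68, and Ms4a7 had 1.21 and -0.62. Il1rn, the interleukin 1 receptor antagonist, had 0.52 and -0.35. Fibronectin (Fn1) had 0.04 and -0.08, both near 0. Hba-a2, a globin gene with the near-identical copy Hba-a1, had -0.68 and 2.06, and reads could be split between both.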

How the results depend on the processing

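No paired analysis was possible because every group holds 1 replicate, and for the same reason no replicate could be left out. With a limit of 1.5-fold 1080 genes were higher and 1254 lower, and 10 lineage factors were higher and 11 lower. With a limit of 4-fold these were 316 and 143 genes and 3 and 2 lineage factors, and 21 phagocyte genes were higher and 13 lower. A pseudocount of 5 gave 350 lower genes and 3 higher lineage factors (Batf and Ikzf1 were then within 2-fold), and a limit of 20 FPKM gave 328 and 2. With that pseudocount Il4ra (0.94), Csf3r (0.84), Xkr8 (0.95), Ms4a7 (0.95), Csf2rb (-0.98), Tnfrsf11a (-0.53), P2ry2 (-0.77), Naip5 (-0.61) and Upk3b (-0.67) were within 2-fold too, as were Clec5a, Clec2d, C1s1, Tlr3, Cgas, Lck, Fos, Gamt, H2-DMb2 and F830016B08Rik. The other counts of genes and of members stayed within 1.5 times their value under the alternatives run. Of 1859 values of 214 genes under the alternatives, 1626 counted as unchanged and 233 as moved. Unchanged values lay inside the gene's counting interval or moved within a limit set by its width. Of the values with a call, 0 changed sign. With no limit on FPKM the median of the T and NK cell list was -0.04, and with 20 FPKM that of the dendritic cell list, then Sirpa alone, was -0.5, where both had been above 0. Median scaling moved the median ratio by 0.08 and TMM scaling by 0.13, and the latter put Gamt and Atf3 within 2-fold as well, at -0.99 and -0.9. Depth limits genes near 5 FPKM little, and libraries of other animals are what the design lacks.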
